A study of Homo sapiens with 12 samples.

Results

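The genes described here are 9 neighbours of CYP1A1 on human chromosome 15: UBL7, ARID3B, CLK3 and EDC3 on one side of the CYP1A1 and CYP1A2 pair, and CSK, ULK3, SCAMP2, MPI and FAM219B on the other. They were taken by symbol from 26485 counted gene symbols, and all 9 of 9 had enough reads to be tested. The list was drawn up with results of these data known, so the values of its genes are given as a description, without p-values, and the counts of calls among them support nothing. DLD1 is an established human colon adenocarcinoma line. Its cells were exposed for 1 h to 10 µM TCDD, 10 µM kynurenine (Kyn) or 10 µM CH223191 (CH), or to the solvent DMSO, with no other agent or genetic change named, and poly(A) RNA was sequenced in 3 libraries per group, 12 in all. Whether libraries of the same group came from different cultures is not stated in the labels, so the spread between them, and the p-values that rest on it, may be technical. All comparisons with DMSO share the same 3 DMSO libraries.

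The aryl hydrocarbon receptor (AHR) is a transcription factor that moves to the nucleus on binding a ligand, pairs with ARNT and binds xenobiotic response elements, whose core is GCGTG. TCDD, a dioxin, activates it strongly. Kynurenine, made from tryptophan in the body, is held to be a natural ligand, and CH223191 is a man-made blocker of the receptor. CYP1A1, a monooxygenase of xenobiotic metabolism, is the classical target gene, and it lies head to head with CYP1A2 in the middle of a region dense in genes of unrelated function. The question put to the data was how far from CYP1A1 a neighbour still moved, and in which direction with the antagonist.

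CYP1A1 runs from 74725536 to 74719542 on the minus strand of chromosome 15 (hg38, GENCODE 44). Below it in coordinate order lie EDC3, on the minus strand, whose start is 29.2 kb from the CYP1A1 start, CLK3, on the plus strand, at 127.0 kb, ARID3B, plus strand, at 184.3 kb, and UBL7, minus strand, at 264.4 kb. Above it lie CYP1A2, plus strand, at 23.3 kb, CSK, plus strand, at 56.5 kb, ULK3, minus strand, at 117.8 kb, SCAMP2, minus strand, at 147.8 kb, MPI, plus strand, at 164.5 kb, and FAM219B, minus strand, at 181.3 kb. Whether reads were counted by strand is not given in the sources used here, which matters for gene models that overlap on opposite strands. CLK3 and EDC3 overlap by 14857 bases and MPI and FAM219B by 2228 bases in GENCODE 44. The RefSeq models of CLK3 and EDC3 do not overlap. The labels name Ensembl release 89, whose models of these genes were not examined here.

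Sequence is shown for the stretch upstream of CYP1A1 that held the most matches to the longer element TNGCGTG, and for RefSeq promoters of EDC3 and CLK3, which moved with both TCDD and CH, and of FAM219B, which was higher with both. The promoter of CSK, also called with both, held 0 matches to GCGTG and is not shown. The CYP1A1 stretch is chr15:74726355-74726654 (hg38, minus strand). Its last printed base, the end nearest the gene, lies 819 bases upstream of the CYP1A1 start. Its capitals mark TNGCGTG on either strand. The promoters are those of RefSeq (GRCh38.p14), 250 bases before to 50 after the start, at chr15:74695975-74696274 (minus strand) for EDC3, chr15:74608122-74608421 (plus strand) for CLK3 and chr15:74906802-74907101 (minus strand) for FAM219B. That of CLK3 belongs to the RefSeq start at 74608372, inside the longer GENCODE gene whose start at 74598500 was used for the distance. The capitals of the promoters mark GCGTG on either strand, which every TNGCGTG contains.
CYP1A1 upstream: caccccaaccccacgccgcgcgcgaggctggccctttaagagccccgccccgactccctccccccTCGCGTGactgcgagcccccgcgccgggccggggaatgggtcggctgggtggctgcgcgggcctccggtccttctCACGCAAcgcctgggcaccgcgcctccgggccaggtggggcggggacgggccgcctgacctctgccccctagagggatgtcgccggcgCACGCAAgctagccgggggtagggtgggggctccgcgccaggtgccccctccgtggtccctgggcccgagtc
EDC3 promoter: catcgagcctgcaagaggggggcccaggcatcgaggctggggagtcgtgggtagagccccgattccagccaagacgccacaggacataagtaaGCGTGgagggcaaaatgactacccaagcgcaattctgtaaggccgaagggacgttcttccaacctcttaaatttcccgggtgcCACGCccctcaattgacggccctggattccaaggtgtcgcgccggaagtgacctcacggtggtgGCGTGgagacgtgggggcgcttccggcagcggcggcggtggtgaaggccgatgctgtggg
CLK3 promoter: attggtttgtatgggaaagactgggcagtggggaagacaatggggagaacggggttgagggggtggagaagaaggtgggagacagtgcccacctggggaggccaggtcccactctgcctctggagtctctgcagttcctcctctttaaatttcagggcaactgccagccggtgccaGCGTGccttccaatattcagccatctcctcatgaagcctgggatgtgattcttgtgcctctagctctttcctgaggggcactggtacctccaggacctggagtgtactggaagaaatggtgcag
FAM219B promoter: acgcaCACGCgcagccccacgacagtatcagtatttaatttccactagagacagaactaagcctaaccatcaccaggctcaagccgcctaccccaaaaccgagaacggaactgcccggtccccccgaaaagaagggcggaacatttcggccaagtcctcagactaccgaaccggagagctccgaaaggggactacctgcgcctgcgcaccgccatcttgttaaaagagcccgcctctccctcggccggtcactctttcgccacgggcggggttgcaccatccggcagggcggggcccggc

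RefSeq promoters were found for 8 of the 9 neighbours. GCGTG was present in 6 of these 8, and in 36.4% of all 27305 promoters of the same length. The EDC3 and ULK3 promoters held 3 matches each, that of SCAMP2 held 2, and those of UBL7, CLK3 and FAM219B held 1, while those of CSK and MPI held 0. The RefSeq promoter of CSK lies inside the gene, downstream of the start from which its distance was measured. TNGCGTG was present in 1 of the 8, EDC3, with 1 match, against 5.5% of all promoters. Between the gene bodies, TNGCGTG was found 12 times in the 23.3 kb from CYP1A1 to CYP1A2, 10 times in the 25.5 kb from CYP1A2 to CSK and 7 times in the 23.2 kb from EDC3 to CYP1A1. This is 0.51, 0.39 and 0.30 matches per kb, against 0.13 per kb over chromosome 15. Farther out there were 0.19 per kb between UBL7 and ARID3B and 0.18 per kb between SCAMP2 and MPI, also above the chromosome value. Neither the comparison with all promoters nor that with chromosome 15 was matched for base composition. A match describes the letters of the sequence and shows no binding.

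Libraries held 21397703 to 28247146 reads on genes (median 26666641), and 13619 genes were tested, with a common biological coefficient of variation of 3.22%. Of 10 colon epithelial markers, 8 averaged at least 1 CPM (reads per 1e6 reads on tested genes, after scaling), CDX1 and CEACAM5 being lower. The summed level of the 10 was 8871 to 9051 CPM with TCDD, 9612 to 9931 CPM with Kyn, 9323 to 9569 CPM with CH and 9117 to 9645 CPM with DMSO. None of 6 fibroblast and none of 4 endothelial markers averaged 1 CPM over the 12 libraries, with DCN and KDR at 0 and VWF reaching 1.33 CPM in its highest library, whereas 2 of 5 immune markers did (CD68 and LYZ). Reads in no gene made up 8.12 ± 0.293% with TCDD, 7.75 ± 0.246% with Kyn, 7.68 ± 0.412% with CH and 8.74 ± 0.752% with DMSO (SD, n = 3 each). Reads aligned to more than 1 place made up 3.89 ± 0.377% with TCDD, 3.30 ± 0.110% with Kyn, 3.15 ± 0.239% with CH and 3.20 ± 0.251% with DMSO. The part of these differences in the results was not tested. Kyn replicate 1 stood apart from the other Kyn libraries: count variance relative to Poisson noise was 4.55 and 4.50 in its pairs and 1.74 between replicates 2 and 3. For DMSO replicate 1 it was 3.96 and 3.12, against 2.755 between DMSO replicates 2 and 3. In bulk RNA, fewer cells expressing a gene and less RNA per cell cannot be told apart.

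CYP1A1 had 435.3, 438.2 and 409.4 CPM in the TCDD libraries, 9.16, 11.2 and 10.1 CPM in the Kyn libraries, and 0.396, 0.428 and 0.736 CPM in the CH libraries, against 3.05, 3.29 and 3.30 CPM in the DMSO libraries. No group overlapped another. The log2 fold change over DMSO was 7.05 ± 0.063 (SE) with TCDD, 1.65 ± 0.10 with Kyn and -2.67 ± 0.20 with CH. CYP1A2 was counted at 50, 56 and 69 reads in the TCDD libraries, 26, 28 and 26 in the Kyn libraries, and 12, 15 and 1 in the CH libraries, against 6, 15 and 11 in the DMSO libraries. Its libraries with TCDD and with Kyn lay above all DMSO libraries, and those with CH overlapped them. CYP1A2 rose with TCDD by 2.61 ± 0.30 on the log2 scale, and its 1.34 ± 0.35 with Kyn did not pass the threshold of an adjusted p of 0.05.

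**Figure D1:**
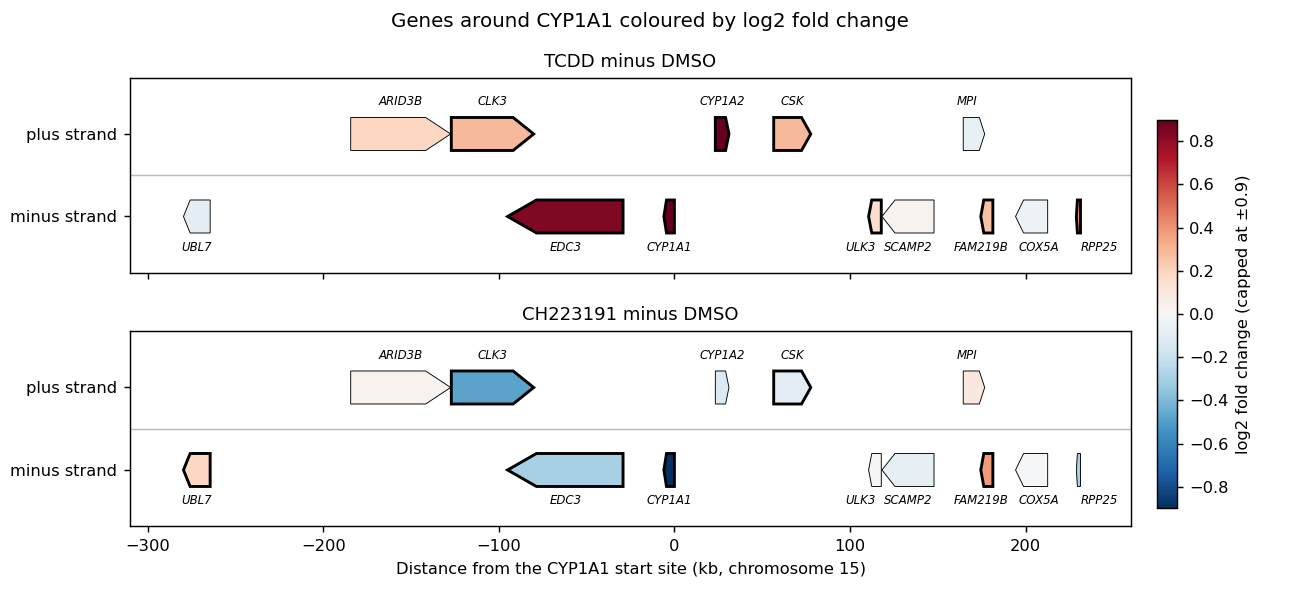
Gene bodies around CYP1A1, placed by distance in kb from the CYP1A1 start and by strand, coloured by log2 fold change over DMSO (capped at 0.9 either way) with TCDD in the upper panel and CH223191 in the lower. Thick outlines mark an adjusted p under 0.05; EDC3 at 29.2 kb is the deepest red neighbour in the upper panel, and CLK3 and EDC3 are blue in the lower panel.

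With TCDD, 5 of the 9 neighbours were called higher (EDC3, CLK3, CSK, FAM219B and ULK3) and 0 lower, where calls were made for 11.7% of all 13619 genes tested (5.91% higher and 5.83% lower). Which contrast the list was selected on is not known, so every contrast of the 4 groups is treated as used in choosing it and nothing is read from that count. It fell to 3 when replicate 2 or 3 of either TCDD or DMSO was left out, each time by the loss of ULK3 and FAM219B. The nearest neighbour on each side was among the 5, and 2 of the 4 genes below CYP1A1 and 3 of the 5 above it were called. The median log2 fold change of the 9 was 0.19, beside 0.00084 over all genes tested. Called, here and below, means an adjusted p under 0.05 by edgeR's quasi-likelihood test with Benjamini-Hochberg adjustment over all genes tested.

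EDC3, an enhancer of mRNA decapping and a scaffold of P-bodies, had the largest change of the 9 with TCDD. It had 137.1, 136.3 and 141.3 CPM in the TCDD libraries, 76.5, 78.9 and 78.8 CPM in the Kyn libraries, and 63.1, 63.9 and 62.0 CPM in the CH libraries, against 77.5, 76.5 and 77.9 CPM in the DMSO libraries. The TCDD libraries lay far above all others, the Kyn libraries overlapped DMSO, and the CH libraries lay below every other library. The log2 fold change over DMSO was 0.84 ± 0.036 with TCDD, a mean 78.7% higher, and this ranked 104 among the rises of all tested genes. It was 0.01 ± 0.038 with Kyn, with a 95% interval of -0.06 to 0.09, and -0.30 ± 0.039 with CH.

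CLK3, a kinase that phosphorylates SR splicing factors, followed the same directions. It had 52.8, 54.0 and 49.6 CPM in the TCDD libraries, 41.0, 40.4 and 42.8 CPM in the Kyn libraries, and 30.4, 30.8 and 30.2 CPM in the CH libraries, against 44.1, 43.5 and 40.2 CPM in the DMSO libraries. Again the TCDD libraries were the highest, the CH libraries the lowest, and Kyn overlapped DMSO. CLK3 rose by 0.29 ± 0.047 on the log2 scale with TCDD, and its change with CH was -0.48 ± 0.050, larger in size than that of EDC3 in the same libraries, although its start lies farther from CYP1A1. With TCDD the order of the pair was the reverse. The differences between the genes were not tested.

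CSK, the kinase that phosphorylates and restrains Src family kinases, is the nearest tested neighbour on the far side of CYP1A2. It had 147.4, 144.5 and 140.4 CPM in the TCDD libraries, 121.6, 115.4 and 119.0 CPM in the Kyn libraries, and 112.6, 109.9 and 107.2 CPM in the CH libraries, against 123.0, 118.4 and 111.7 CPM in the DMSO libraries. The TCDD libraries lay above all others, while Kyn and CH both overlapped DMSO. Its log2 fold change was 0.29 ± 0.038 with TCDD, equal within error to that of CLK3 on the other side, and -0.10 ± 0.039 with CH. That fall with CH was called but held in 6 of 20 alternative settings only.

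ULK3, a serine/threonine kinase of the family of the autophagy initiator ULK1, had 32.3, 33.4 and 33.4 CPM in the TCDD libraries, 30.6, 30.1 and 30.7 CPM in the Kyn libraries, and 30.0, 29.8 and 29.9 CPM in the CH libraries, against 31.1, 29.2 and 28.6 CPM in the DMSO libraries. The TCDD libraries lay above DMSO by little and the others overlapped it. Its rise of 0.16 ± 0.050 on the log2 scale with TCDD was called in 13 of 20 alternative settings and was lost with DESeq2. With CH it stood at 0.01 ± 0.050.

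SCAMP2, a membrane protein of the secretory and recycling pathways, had 96.8, 86.9 and 86.2 CPM in the TCDD libraries, 94.1, 90.9 and 92.9 CPM in the Kyn libraries, and 84.8, 82.3 and 81.4 CPM in the CH libraries, against 86.9, 87.9 and 88.7 CPM in the DMSO libraries. MPI, which interconverts mannose-6-phosphate and fructose-6-phosphate, had 25.3, 24.4 and 29.2 CPM in the TCDD libraries, 27.6, 27.3 and 26.1 CPM in the Kyn libraries, and 30.2, 28.0 and 30.9 CPM in the CH libraries, against 28.3, 26.7 and 28.1 CPM in the DMSO libraries. Neither passed the threshold against DMSO with any compound. SCAMP2 libraries lay wholly above DMSO with Kyn and wholly below it with CH, by 0.08 ± 0.041 and -0.08 ± 0.041 on the log2 scale, and the TCDD libraries straddled DMSO at 0.03 ± 0.041. MPI libraries overlapped DMSO in every group, at -0.07 ± 0.060 with TCDD and 0.10 ± 0.059 with CH.

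FAM219B, the farthest neighbour of the list above CYP1A1, had 13.8, 14.8 and 13.9 CPM in the TCDD libraries, 12.6, 12.7 and 11.2 CPM in the Kyn libraries, and 15.9, 14.8 and 15.6 CPM in the CH libraries, against 12.3, 11.5 and 11.7 CPM in the DMSO libraries. It was higher with both the agonist TCDD and the antagonist, and both groups lay above every DMSO library. The log2 fold changes were 0.26 ± 0.076 with TCDD and 0.38 ± 0.074 with CH, both called. It shares sequence with MPI on the opposite strand, whose log2 fold changes were smaller in both groups.

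UBL7, which carries a ubiquitin-like domain, is the farthest neighbour on the other side. It had 30.0, 28.7 and 29.5 CPM in the TCDD libraries, 33.3, 28.2 and 30.8 CPM in the Kyn libraries, and 35.6, 36.0 and 35.3 CPM in the CH libraries, against 32.3, 31.9 and 29.6 CPM in the DMSO libraries. The CH libraries alone lay apart from DMSO, above it, by 0.19 ± 0.054 on the log2 scale, a call that was lost without DMSO replicate 3. With TCDD the value was -0.09 ± 0.056. ARID3B, a DNA-binding protein with an AT-rich interaction domain, was scarce, at 3.87, 4.63 and 3.08 CPM in the TCDD libraries, 3.24, 3.29 and 3.11 CPM in the Kyn libraries, and 3.85, 2.61 and 3.96 CPM in the CH libraries, against 3.40, 3.44 and 3.27 CPM in the DMSO libraries. All its groups overlapped DMSO. Its log2 fold change of 0.19 with TCDD carried an SE of 0.15 and a 95% interval of -0.10 to 0.49, so a rise as large as that of CLK3 was not detectable as different from no change at this depth.

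**Figure D2:**
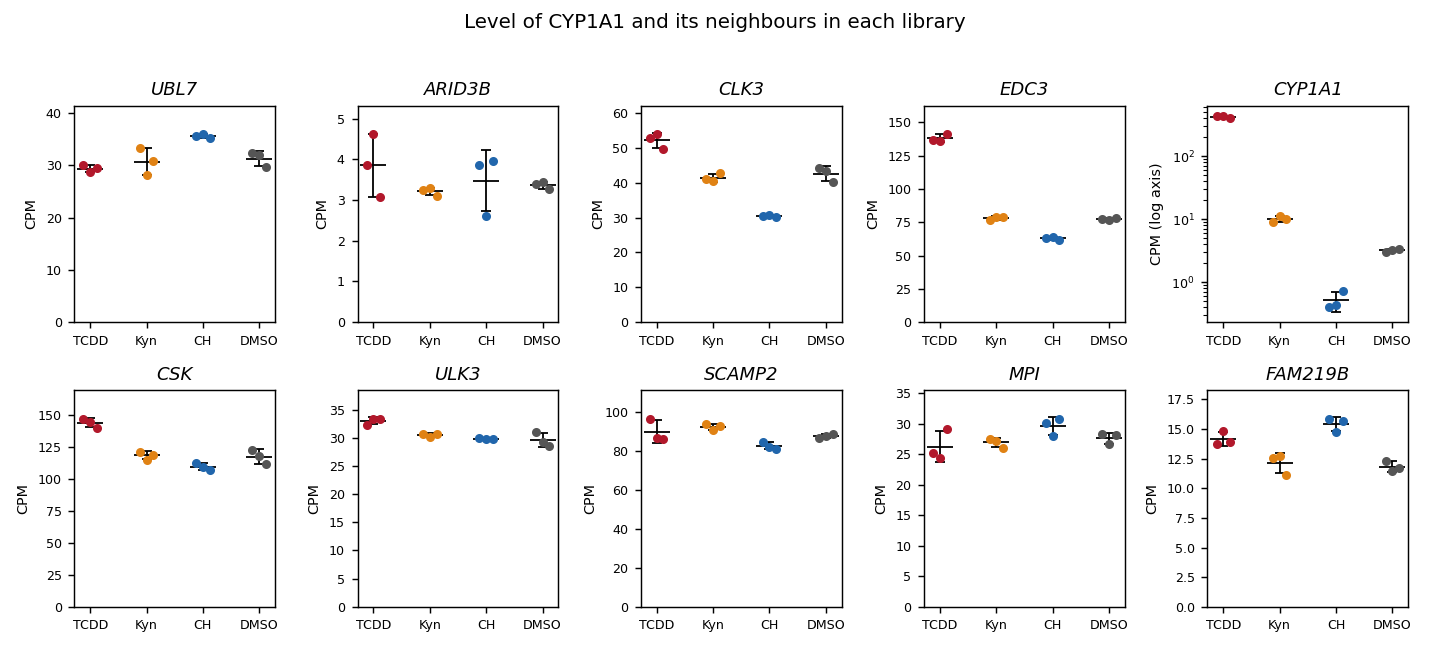
CPM of CYP1A1 (log axis) and its 9 neighbours in each library, by group, with points for the 3 libraries and bars for the mean and SD. The 3 TCDD libraries of EDC3 sit between 136.3 and 141.3 CPM, above all others, and those of CLK3 and EDC3 with CH sit below all others, while both TCDD and CH lie above DMSO for FAM219B.

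With Kyn, 0 of the 9 neighbours were called by edgeR, 0 had an unadjusted p under 0.05, and DESeq2 called 0, where edgeR called 0.294% of all genes. The log2 fold changes ran from -0.07 (ARID3B) to 0.08 (SCAMP2). CYP1A1 itself was 3.15-fold over DMSO in these libraries. The 95% interval of CSK, -0.06 to 0.09, was as narrow as that of EDC3. Without Kyn replicate 1, 0 neighbours were called as well.

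With CH, 5 of the 9 neighbours were called, 3 lower (CLK3, EDC3 and CSK) and 2 higher (FAM219B and UBL7), where 32.8% of all genes were called (16.9% lower and 15.9% higher). The 3 that were lower start within 127.0 kb of the CYP1A1 start, and the 2 that were higher start at 181.3 and 264.4 kb. ULK3, whose start lies at 117.8 kb, had a log2 fold change of 0.01 ± 0.050. Measured between gene bodies, EDC3, CSK and CLK3 were the nearest of the 9 to CYP1A1, at 23.2, 56.5 and 74.1 kb, and ULK3 lay at 110.6 kb. All other distances given here run between GENCODE gene starts, by which ULK3 lies nearer than CLK3. By the RefSeq starts of these genes CLK3 lies slightly nearer than ULK3. The CSK call held in 6 of 20 alternative settings only, and no relation of distance to direction was tested. The median over the 9 was 0.01, beside 0.00097 over all genes tested.

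**Figure D3:**
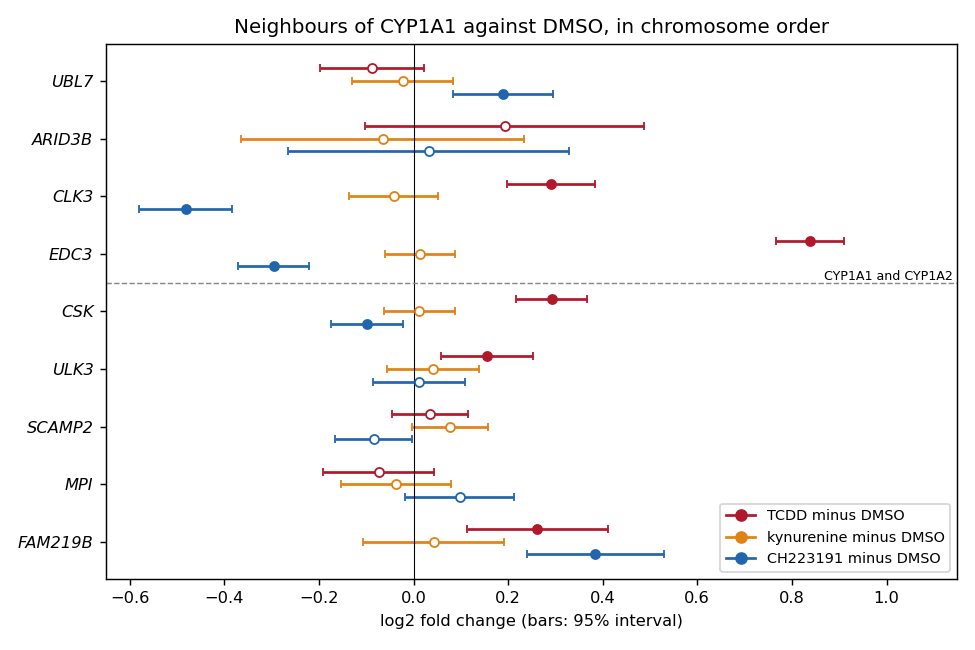
Log2 fold change over DMSO of the 9 neighbours in chromosome order, with TCDD, Kyn and CH223191 drawn from top to bottom within each gene and bars for the 95% interval. Filled points passed an adjusted p of 0.05; CLK3, EDC3 and CSK lie to the right with TCDD and to the left with CH, FAM219B to the right with both, and no Kyn point is filled.

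Set directly against each other, TCDD exceeded Kyn for EDC3 by 0.82 ± 0.037, for CLK3 by 0.33 ± 0.047 and for CSK by 0.28 ± 0.038 on the log2 scale, and these 3 of 9 were called, where 9.19% of all genes were (5.10% higher and 4.09% lower). FAM219B at 0.22 ± 0.075 and ULK3 at 0.12 ± 0.050 were not. Between TCDD and CH, 7 of 9 were called, where 37.1% of all genes were (19.0% higher and 18.1% lower). EDC3 was higher with TCDD than with CH by 1.13 ± 0.037, CLK3 by 0.77 ± 0.050, CSK by 0.39 ± 0.039, ULK3 by 0.14 ± 0.050 and SCAMP2 by 0.12 ± 0.042, and UBL7 and MPI were lower, at -0.28 ± 0.055 and -0.17 ± 0.060. FAM219B was not called, at -0.12 ± 0.073. The calls of EDC3, CLK3, CSK and UBL7 held in all 20 alternative settings, and those of ULK3, SCAMP2 and MPI in 15, 16 and 16 of them.

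To ask how far the change reached by position alone, every counted gene starting within 500 kb of the CYP1A1 start was taken. These were 22 genes apart from CYP1A1 and CYP1A2, with the genes of the list among them. Of these, 16 were tested. CYP11A1, LMAN1L, CPLX3 and the microRNA genes MIR6881, MIR4513 and MIR6882 had too few reads. With TCDD, 6 of the 16 were called, all higher, where 11.7% of all genes were called and 5.91% were called higher. Among the 7 that were not on the list, 1 was called (14.3%), a share near that of all genes. It was RPP25, a protein subunit of ribonuclease P and MRP, at 231.2 kb. RPP25 averaged 5.99 CPM with TCDD and 4.50 CPM with DMSO, a log2 fold change of 0.41 ± 0.12 (adjusted p = 0.017, edgeR's quasi-likelihood test), and all TCDD libraries lay above all DMSO libraries. That call was lost without DMSO replicate 1, TCDD replicate 2 or TCDD replicate 3. The other 6 had log2 fold changes of 0.21 ± 0.19 for SEMA7A, a membrane-anchored semaphorin, 0.15 ± 0.14 for UBL7-AS1, -0.05 ± 0.038 for COX5A, a subunit of cytochrome c oxidase, -0.08 ± 0.21 for SCAMP5, -0.05 ± 0.11 for PPCDC, an enzyme of coenzyme A synthesis, and -0.06 ± 0.047 for C15orf39.

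By distance, 2 of the 2 tested genes starting within 100 kb were called with TCDD, 3 of the 6 between 100 and 200 kb, 1 of the 8 between 200 and 500 kb, and 1 of the 11 between 500 kb and 1 Mb. The median log2 fold changes of these bins were 0.57, 0.17, -0.05 and 0.0096. Over all genes 11.7% were called, and the shares in the outer bins, 12.5% between 200 and 500 kb and 9.09% beyond 500 kb, were near it. The bins are small, and 5 of the 6 rises are genes of the list. Every tested gene starting within 200 kb is on the list, so the inner bins are not free of its choice. The 1 call beyond 500 kb was COMMD4, named after its value was seen, which was lower (-0.19 ± 0.050). Neighbours that were not called lay between those that were, such as SCAMP2 and MPI between ULK3 and FAM219B.

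With CH, 5 of the 16 genes were called (31.3%), a share near the 32.8% of all genes. The 5 were all on the list. Of the other 7, 0 were called and 2 had an unadjusted p under 0.05 by edgeR's quasi-likelihood test. These were RPP25, at -0.30 ± 0.13 (adjusted p = 0.064), and PPCDC, at 0.25 ± 0.10 (adjusted p = 0.062). Both tested genes within 100 kb, which are on the list, were lower, with a median log2 fold change of -0.20. In the next bins 2 of 6, 1 of 8 and 4 of 11 were called, with medians of 0.02, 0.05 and 0.11. These shares, 33.3, 12.5 and 36.4%, were near or below that of all genes. The 4 called beyond 500 kb, named after their values were seen, were SIN3A, SNUPN and SNX33, which were higher, and IMP3, which was lower. With Kyn, 0 of the 16 were called by edgeR or by DESeq2, and 1, COX5A, had an unadjusted p under 0.05. Between TCDD and Kyn 5 of the 16 were called, 3 of them on the list, where 9.19% of all genes were called. Of the 5, 4 were higher (RPP25 by 0.47 ± 0.12 among them) and COX5A was lower, at -0.13 ± 0.038. Between TCDD and CH 9 of the 16 were called, 6 higher and 3 lower. Of these 9, 7 are on the list, and 37.1% of all genes were called. The call of COX5A was lost without TCDD replicate 2 or 3 or Kyn replicate 1, and that of RPP25 between TCDD and Kyn without Kyn replicate 2.

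**Figure D4:**
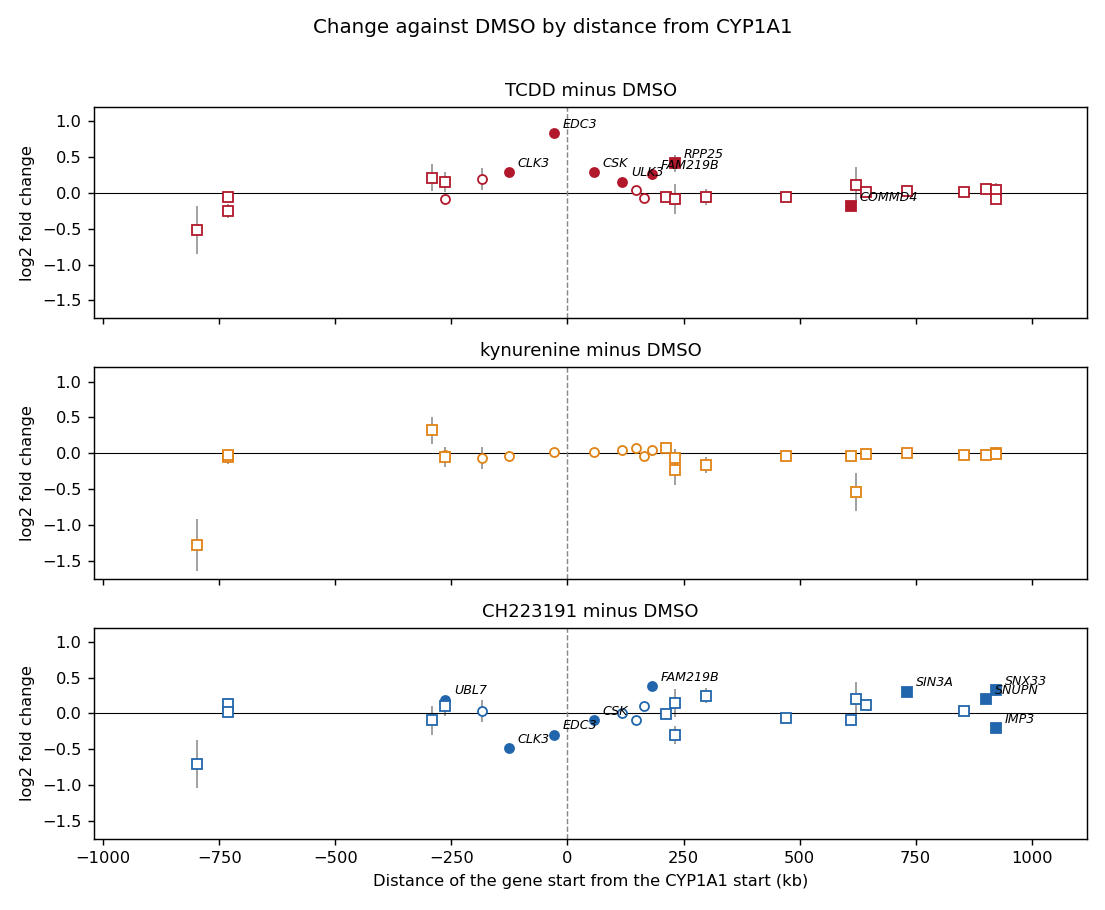
Log2 fold change over DMSO (bars, SE) of the 27 tested genes within 1 Mb of CYP1A1 against distance of their start from the CYP1A1 start in kb, for TCDD, Kyn and CH223191. Circles are the 9 neighbours, squares other genes, and filled symbols passed an adjusted p of 0.05; with TCDD the filled rises lie within 231.2 kb, with Kyn no symbol is filled, and with CH filled symbols of both signs run out to beyond 500 kb.

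The same window of 500 kb was taken around 3 other genes that TCDD raised, beside the 11.7% of all genes called with TCDD and the 32.8% with CH. Near CYP1B1, 3 of 5 tested genes were called with TCDD: CYP1B1-AS1 (1.91 ± 0.31 on the log2 scale) and RMDN2 (0.43 ± 0.11), which overlap CYP1B1 and may share its reads, and ATL2 at 267.4 kb (0.16 ± 0.038). Near TIPARP 2 of 5 were called, LINC00880 at 455.4 kb (1.66 ± 0.43) and SSR3 at 118.1 kb (0.13 ± 0.035), and near AHRR 2 of 9, TPPP at 371.6 kb (1.10 ± 0.13) and EXOC3 at 121.5 kb (0.29 ± 0.041). All 7 were higher. EXOC3 starts at 443175 on chromosome 5, shortly past the AHRR end at 438291 on the same strand. Its distance runs from the AHRR start, so AHRR itself spans most of it. Whether reads running past AHRR were counted for EXOC3 was not tested. With CH, 1 of 5, 2 of 5 and 2 of 9 were called near CYP1B1, TIPARP and AHRR, all lower. They were ATL2 (-0.24 ± 0.038), SSR3 (-0.13 ± 0.035), EXOC3 (-0.18 ± 0.042), CCNL1 near TIPARP (-0.22 ± 0.058) and PDCD6 near AHRR (-0.17 ± 0.047). Each window holds few genes, and the windows were not tested against one another.

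Per kb of the canonical transcript, the neighbours differed widely in level in DMSO. CSK stood highest at 42.9 ± 2.08 CPM per kb, then SCAMP2 at 35.8 ± 0.384, CLK3 at 23.0 ± 1.12, UBL7 at 22.2 ± 1.02, EDC3 at 20.7 ± 0.194, ULK3 at 11.5 ± 0.496, MPI at 4.78 ± 0.156, FAM219B at 3.61 ± 0.136 and ARID3B at 0.796 ± 0.021 (SD, n = 3). CLK3 and UBL7 did not differ beyond their spread, and the other adjacent pairs did by more than 1 SD. With TCDD, EDC3 reached 36.9 ± 0.710 CPM per kb and stood level with SCAMP2 at 36.7 ± 2.41, behind CSK at 52.5 ± 1.28. The difference in level between TCDD and DMSO was 16.3 CPM per kb for EDC3, 9.61 for CSK and 5.14 for CLK3. It was 163.1 CPM per kb for CYP1A1, so the difference for EDC3 came to 9.98% of that for CYP1A1, with 5.89% for CSK and 3.15% for CLK3.

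For every tested gene, the 4 group means of log2 CPM were centred on their own mean. Nearest to EDC3 by these centred means were GNAI1, OTUB2 and KSR2. GNAI1 is a G protein alpha subunit of the inhibitory class, OTUB2 a deubiquitinase and KSR2 a scaffold of the MAP kinase pathway. Their Euclidean distances from EDC3 on the log2 scale were 0.057, 0.093 and 0.13, over 4 groups and 12 libraries. Relative to its DMSO mean, GNAI1 stood at 0.87 with TCDD, -0.02 with Kyn and -0.33 with CH on the log2 scale.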

How the data were processed

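Poly(A) RNA of 12 DLD1 libraries was analysed in 4 groups of 3, named by their labels. The deposited values are raw counts per gene symbol. Per the submitters' processing notes, reads were trimmed with Trim Galore, aligned to hg38 with STAR 2.7.2b, sorted with SAMtools 1.9 and counted with HTSeq; the protocol text in the labels names an older STAR version and does not mention CH223191. The neighbours and gene lists were chosen with earlier results of these data known.

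The test used edgeR 4.0.16 under R 4.3.3 (filterByExpr, minimum count 10; TMM factors 0.988 to 1.02; quasi-likelihood test on all 12 libraries, 1 coefficient per group, no block; Benjamini-Hochberg adjustment over 13619 genes). CPM used each library's total over the tested genes, scaled by its TMM factor. Reads on all counted genes, before scaling, were 21397703 to 28247146. Standard errors came from the fold change and its F statistic. HTSeq summary counters stayed out of library sizes, and reads in no gene or in more than 1 place are given as a share of all reads on genes, in no gene, ambiguous or aligned to more than 1 place. Positions came from GENCODE 44, which matched 24429 symbols, and distances run between gene starts. Named are the 9 neighbours, CYP1A1, CYP1A2, every tested gene within 500 kb, up to 4 called genes near CYP1B1, TIPARP and AHRR, and the 3 genes nearest to the neighbour of smallest joint p. Replicate numbers did not pair libraries (correlation of deviations -0.055 to 0.037 in 18 pairs of the same number). Variance ratios of 1.74 to 4.55 in same-group pairs showed no duplicated library. On simulated counts for TCDD against DMSO, with 13619 genes, the procedure called 54, 76, 82 and 98% of 50 genes each planted at log2 changes of 0.2, 0.4, 0.8 and 1.6, and 3 of 13284 unchanged genes. The simulation drew each gene from the fitted trend of spread with level. It held no spread particular to a gene, no library that stood apart and few changed genes, so these rates need not carry over.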

Additional observations from a re-analysis of the deposited data

How the results depend on the processing

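The settings tried were DESeq2 1.42.0, scaling by RLE factors or by totals alone, a filter of 5 CPM in 3 libraries or none, a fit with the replicate block, a fit to the compared groups only, leaving out each library, and windows of 250 kb and 1 Mb. A correction for trends with GC content and transcript length (97.5% of tested genes had values) was chosen after seeing the data. Of 1090 recomputed log2 fold changes of the 9 neighbours, CYP1A1 and CYP1A2, 0 changed sign as a called value and 11 moved by more than the spread; those of the other named genes were not recomputed, only their calls within the window. EDC3, CLK3 and CSK with TCDD, and EDC3, CLK3 and FAM219B with CH, were called against DMSO in all 20 settings of the fit, at 0.82 to 0.85, 0.25 to 0.32, 0.26 to 0.36, -0.32 to -0.27, -0.52 to -0.46 and 0.36 to 0.42 on the log2 scale.

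The count of neighbours called with TCDD, 5, was 3 to 5 with a library left out. It was 3 when replicate 2 or 3 of either TCDD or DMSO was left out, which lost ULK3 and FAM219B. The count within 500 kb, 6, was 3 to 6, and was 3 without TCDD replicate 2 or 3, which also lost RPP25. With CH the window count of 5 of 16 tested genes became 9 of 27 within 1 Mb (5 higher, 4 lower), since more genes were counted. These 9 are 33.3% of the 27, near the 32.8% of all genes called with CH. UBL7 with CH was not called without DMSO replicate 3, and SCAMP2 was called lower with CH in 1 setting, the GC and length correction. With a library left out, the neighbours called ranged from 4 to 5 for CH against DMSO, 0 to 0 for Kyn against DMSO, 3 to 3 for TCDD against Kyn and 5 to 7 for TCDD against CH. The main fit called 32.8, 0.294, 9.19 and 37.1% of all genes in these contrasts, in the same order. With the replicate block, neighbours called were 5 with TCDD, 0 with Kyn and 5 with CH against DMSO, and window genes 6, 0 and 5. Replicate numbers gave no pairing, and the block changed none of these counts. Genes at a few CPM, such as ARID3B, have wide intervals at this depth, and ARID3B was not tested with the 5 CPM filter.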
